A study of Mus musculus with 12 samples.

Results

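The comparison described here is 4-hydroxytamoxifen against ethanol in mouse inguinal adipocytes stimulated with rosiglitazone. It was taken from an Affymetrix microarray experiment with 4 groups of 3 arrays. The members are the 6 arrays of the groups 4OHT_Rosi and EtOH_Rosi, of 12 arrays in all. All 6 came from inguinal adipose precursor cells of the genotype R26Cre/Prdm16floxEx9, which pairs a Cre recombinase allele at the Rosa26 locus with a floxed exon of Prdm16. During growth the 4OHT_Rosi cells received 1 uM 4-hydroxytamoxifen, which activates Cre fused to a modified estrogen receptor, for 3 days, and the EtOH_Rosi cells received ethanol. Both groups were then differentiated in medium with 10% serum that contained dexamethasone (1 uM), isobutylmethylxanthine (0.5 uM), indomethacin (125 nM), insulin (20 nM) and T3 (1 nM), and were stimulated with 1 uM rosiglitazone. The EtOH_Rosi cells thus carried the same floxed and Cre alleles, and no group of cells without them, with or without 4-hydroxytamoxifen, was analysed here. An effect of 4-hydroxytamoxifen or of active Cre and an effect of the Prdm16 deletion cannot be told apart in this design. The groups EtOH and 4OHT, with 3 arrays each, had the same genotype and ethanol or 4-hydroxytamoxifen treatment with no rosiglitazone in their labels, and serve below to show where the rosiglitazone comparison differs. No label gives the animals' age or strain, or says that replicates were separate cultures, so p-values may measure only technical spread.

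PRDM16 is a zinc finger transcriptional regulator that is required for the thermogenic program of beige adipocytes, the inducible brown-like fat cells of white depots such as the inguinal one. Rosiglitazone is an agonist of PPARgamma, the nuclear receptor that drives adipocyte differentiation, and is used to induce beige fat genes in culture. Interferon-stimulated genes are antiviral and immune genes that are transcribed when interferon receptors activate STAT proteins and IRF9, or when IRF proteins act on their promoters directly. The question this comparison addresses is which genes differ after 4-hydroxytamoxifen treatment of cells with a floxed Prdm16 exon in beige-inducing conditions.

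The deposited values are on a log2 scale and were analysed for 22180 genes, each represented by its brightest probe set. They ranged from 3.05 to 13.91 over all probe sets, and array medians lay between 5.97 and 6.05. Arrays of the same rosiglitazone group correlated at 0.996 to 0.997 across probe sets, and arrays of different rosiglitazone groups at 0.991 to 0.995. The first principal component of the 6 arrays held 48.8% of their variance and separated the groups, with EtOH_Rosi arrays between -18.84 and -10.14 and 4OHT_Rosi arrays between 11.25 and 20.2. With limma, 1032 genes (4.65% of those tested) were higher in 4OHT_Rosi at an adjusted p under 0.05 and 750 genes (3.38%) were lower. In what follows, rose and fell mean that a gene passed this threshold, and differences are 4OHT_Rosi minus EtOH_Rosi in log2 units with the standard error of the fit. Counts of list members below are to be read beside the shares over all genes, 4.65% for rises and 3.38% for falls. The median size of the calls was 0.38 for rises and -0.35 for falls, while the median difference over all genes was -0.007. At least 2-fold changes were seen for 73 risen and 19 fallen genes. The count of falls dropped to 452 without the array EtOH_Rosi 2, and the count of rises lay between 691 and 981 when any single array was left out. Cell number and RNA per cell cannot be separated in bulk samples, so a lower level may mean fewer cells of a type or less RNA in each.

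**Figure D1:**
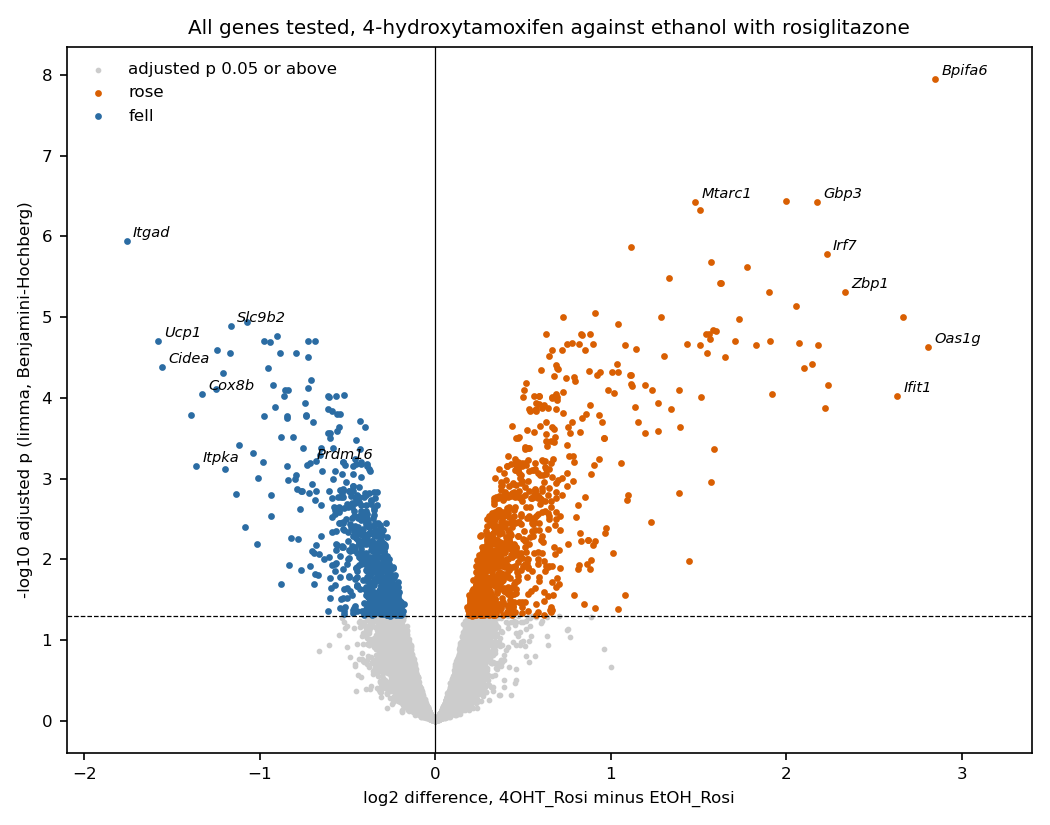
Each point is a gene. The x axis gives the log2 difference between 4OHT_Rosi and EtOH_Rosi (3 arrays each), the y axis the -log10 of the limma adjusted p, and the dashed line marks an adjusted p of 0.05. The 1032 risen genes reach 2.85 (Bpifa6) and the 750 fallen genes reach -1.76 (Itgad).

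Prdm16, the targeted gene, was lower in 4OHT_Rosi. Its values were 7.20, 7.46 and 7.44 on the EtOH_Rosi arrays and 6.63, 6.70 and 6.63 on the 4OHT_Rosi arrays. All 3 treated arrays lay below all 3 control arrays. The difference was -0.71 ± 0.10 (SE), or 1.64-fold lower (adjusted p = 0.000646). The remaining signal was close to that of cells without rosiglitazone, where EtOH arrays read 6.49 to 6.84 and 4OHT arrays 6.33 to 6.59, a difference of -0.17 (adjusted p = 0.455). The position of the probe set relative to the floxed exon was not worked out, so the size of its drop does not measure how complete the deletion was. The second, dimmer probe set of the gene had a mean of 4.72 and a difference of -0.07 (adjusted p = 0.644). Among the 20 measured genes nearest to Prdm16 on its chromosome, 10 on each side, 1 rose and 0 fell. These counts are close to the shares over all genes, 4.65% and 3.38%. The one that rose was Trp73, a p53 family gene, by 0.30 (adjusted p = 0.00929).

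Many interferon-stimulated genes were among those that rose, and many of their promoters hold the core motif bound by interferon regulatory factors and the STAT complex with IRF9. Promoter windows of RefSeq (GRCm38.p6), from 250 bases before to 50 bases after each gene's start, were available for 16990 of the genes tested. They were searched on both strands for the letters GAAA, any 2 bases (NN) and GAAA again, and overlapping matches were counted apart. A match was found in 657 of all 16990 windows (3.87%), in 75 of the 819 windows of risen genes (9.16%) and in 23 of the 53 windows of genes that rose at least 2-fold (43.4%). Windows of fallen genes held it in 16 of 582 cases (2.75%), and those of genes that fell at least 2-fold in 2 of 13 (15.4%). The bases before the start are shown for 4 interferon-stimulated genes that rose and whose windows hold the motif, Isg15, Ifit1, Oas1g and Rsad2, each 5′ to 3′ along the gene, with every match in capitals, where a match on the opposite strand reads TTTC, 2 bases and TTTC.
Isg15: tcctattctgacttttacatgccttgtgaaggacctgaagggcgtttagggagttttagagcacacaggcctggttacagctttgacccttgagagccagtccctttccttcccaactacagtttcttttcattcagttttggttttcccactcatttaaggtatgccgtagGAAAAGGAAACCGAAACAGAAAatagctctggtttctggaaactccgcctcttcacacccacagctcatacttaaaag
Ifit1: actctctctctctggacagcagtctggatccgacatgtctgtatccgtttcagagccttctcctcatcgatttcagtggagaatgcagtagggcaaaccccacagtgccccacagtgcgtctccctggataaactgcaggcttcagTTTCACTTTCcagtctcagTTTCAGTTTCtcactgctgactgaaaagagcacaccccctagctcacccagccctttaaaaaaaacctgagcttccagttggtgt
Oas1g: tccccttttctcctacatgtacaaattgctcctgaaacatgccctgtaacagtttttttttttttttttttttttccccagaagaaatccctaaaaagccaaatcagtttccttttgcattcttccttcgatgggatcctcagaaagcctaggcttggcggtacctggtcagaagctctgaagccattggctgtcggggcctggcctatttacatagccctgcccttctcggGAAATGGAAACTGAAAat
Rsad2: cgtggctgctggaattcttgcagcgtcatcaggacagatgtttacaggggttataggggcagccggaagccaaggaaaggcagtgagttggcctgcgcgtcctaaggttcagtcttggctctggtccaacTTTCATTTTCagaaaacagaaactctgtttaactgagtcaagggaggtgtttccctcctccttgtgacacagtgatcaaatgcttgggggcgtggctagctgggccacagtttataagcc
The Isg15 stretch is chr4:156200819-156201068 on the minus strand, and its 3 overlapping matches begin 78, 72 and 66 bases before the start. The Ifit1 stretch is chr19:34640639-34640888 on the plus strand, with 2 matches on the opposite strand that begin 104 and 85 bases before the start. The Oas1g stretch is chr5:120887614-120887863 on the minus strand, with 2 overlapping matches at 18 and 12 bases, and the Rsad2 stretch is chr12:26456453-26456702 on the minus strand, with 1 match on the opposite strand at 120 bases. The windows of Irf7 and Ucp1 held 0 matches. All 7 windows available for interferon-inducible GTPases, 8 of 11 (72.7%) of the Ifit and oligoadenylate synthetase families and 7 of 10 (70.0%) of the antiviral Trim genes held a match, against 0 of 16 for thermogenic effectors. The share was lower in other interferon lists, at 12 of 29 (41.4%) for other antiviral effectors, 3 of 12 (25%) for sensors, 1 of 4 (25%) for Isg15 conjugation, 2 of 12 (16.7%) for the Parp family and 1 of 7 (14.3%) for interferon regulatory factors. Outside the interferon lists, 5 of 23 windows (21.7%) of cytosolic ribosomal protein genes held it. The motif was also found in 8 of 15 windows of the interferon ligand genes (53.3%), a list in which no member passed the test. These matches are letters in a window and were not tested as binding sites.

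No interferon gene passed the test. In limma, 0 of 16 measured ligand genes rose and 0 fell, and at an unadjusted p under 0.05 the counts were 0 and 1. The median difference of the list was -0.03, and Ifnb1, at a level of 4.38 in EtOH_Rosi, differed by -0.03 ± 0.09 (adjusted p = 0.89). Of 15 receptor and JAK-STAT genes, 1 rose. This was Stat2, a subunit of the transcription complex that type I interferon activates. Its values were 9.42, 9.38 and 9.17 on the EtOH_Rosi arrays and 10.40, 10.32 and 10.50 on the 4OHT_Rosi arrays, a rise of 1.08 ± 0.10 (adjusted p = 2.21e-05). The receptor subunits Ifnar1 and Ifnar2 differed by 0.10 (adjusted p = 0.438) and 0.16 (adjusted p = 0.129).

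Among 7 interferon regulatory factors, 2 rose and 1 fell. Irf7, which amplifies interferon production once induced, read 8.66, 8.32 and 8.10 after ethanol and 10.64, 10.58 and 10.55 after 4-hydroxytamoxifen. The treated arrays were nearly identical and lay far above the controls, a rise of 2.23 ± 0.14 or 4.69-fold (adjusted p = 1.65e-06). Irf9, the DNA-binding partner of STAT proteins, rose from 8.38 to 8.84 across the control arrays to 9.43 to 9.58 across the treated ones, by 0.88 ± 0.10 (adjusted p = 0.000123). Irf4, which drives thermogenic transcription in brown fat together with PGC-1alpha, moved the other way. Its control arrays read 6.76, 7.11 and 7.63 and its treated arrays 6.09, 6.13 and 5.87, a fall of 1.14 on the log2 scale (SE 0.18, adjusted p = 0.00156). Irf1, Irf2, Irf3 and Irf8 had differences between -0.12 and 0.16 with adjusted p from 0.259 to 0.791.

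Sensors of foreign nucleic acid rose in part. Of 17 measured sensors and adaptors, 8 rose and 0 fell (47.1%, against 4.65% of all genes). Zbp1, a sensor of Z-form nucleic acid, had the largest change, from 8.91, 8.39 and 8.12 to 10.72, 10.63 and 11.08. That is 5.05-fold (2.34 ± 0.17, adjusted p = 4.93e-06). The cytosolic RNA sensors followed, with Ifih1 (MDA5) up by 1.33 ± 0.09, Ddx58 (RIG-I) by 1.03 ± 0.10 and Dhx58 (LGP2) by 0.83 ± 0.10 (adjusted p = 3.25e-06, 3.81e-05 and 0.000268). Tlr3, the endosomal sensor of double-stranded RNA, rose by 0.69 ± 0.08, and Adar, which edits such RNA, by 0.62 ± 0.09. The DNA sensor gene Cgas (-0.05, adjusted p = 0.763) and the adaptors Sting1 (-0.09, adjusted p = 0.773) and Mavs (-0.01, adjusted p = 0.973) did not pass the test.

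The Ifit and oligoadenylate synthetase families, which bind foreign RNA or make the activator of RNase L, rose almost throughout. Of 13 measured members 11 rose (84.6%), and the median difference was 1.51. Ifit1 read 7.97, 8.60 and 7.72 on the control arrays and 10.69, 10.53 and 10.97 on the treated arrays. Its rise was 2.63 ± 0.29, or 6.2-fold (adjusted p = 9.5e-05), with the control array EtOH_Rosi 2 the highest of its group. Oas1g rose from 7.08, 6.31 and 6.05 to 9.35, 9.14 and 9.37, or 7.0-fold (2.81 ± 0.25, adjusted p = 2.34e-05). Oas3, at 7.17, 7.13 and 7.09 before and 8.83, 8.48 and 8.60 after, rose by 1.51 with an SE of only 0.08 (adjusted p = 4.73e-07). Oasl2, Oas2, Oas1b and Oasl1 rose by 2.07, 1.83, 1.71 and 1.60. The 2 members below the threshold were Ifit1bl1 (0.31, adjusted p = 0.549) and Oas1c (0.32, adjusted p = 0.143). Close paralogs in these and the following families may share probe sequence, so the split of signal between family members is uncertain.

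Interferon-inducible GTPases, which attack the membranes of intracellular pathogens, rose in 14 of 16 cases (87.5%) with a median of 1.39. Gbp3 rose from 6.66, 6.52 and 6.15 to 8.71, 8.45 and 8.69, or 4.51-fold (2.17 ± 0.11, adjusted p = 3.78e-07). All 3 treated arrays lay above all 3 controls. The immunity-related GTPases Igtp, Iigp1 and Irgm2 rose by 1.91 ± 0.17, 1.78 ± 0.12 and 1.57 ± 0.13. Gbp7 and Gbp10 rose by 1.63 and 1.57 (adjusted p = 3.73e-06 and 2.05e-06). Gbp6 (0.22, adjusted p = 0.114) and Gbp8 (0.36, adjusted p = 0.105) did not pass.

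Other antiviral effectors rose in 24 of 32 cases (75.0%) with a median of 0.60, and 1 fell. Cmpk2, a mitochondrial nucleotide kinase, rose from 7.17, 7.81 and 6.77 to 9.45, 9.23 and 9.79 (2.24 ± 0.23, adjusted p = 6.88e-05). Its neighbour Rsad2 (viperin), which makes an antiviral nucleotide analogue, rose from 7.43, 8.05 and 7.21 to 9.69, 9.39 and 9.92 (2.10 ± 0.21, adjusted p = 4.31e-05). In both genes EtOH_Rosi 2 was the highest control, yet all treated arrays stayed above it. The apolipoprotein L genes Apol9b and Apol9a rose by 2.22 ± 0.25 and 1.44 ± 0.13, and are close copies of each other. Rtp4, Xaf1 and Slfn2 rose by 1.65, 1.54 and 1.04, and Eif2ak2, the kinase PKR that stops translation on double-stranded RNA, by 0.72 ± 0.07 (adjusted p = 2.52e-05). Isg20, an exonuclease gene, fell by 0.54 on the log2 scale (adjusted p = 0.000159).

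All 5 genes of the Isg15 pathway rose, a ubiquitin-like system that tags proteins during the interferon response. Isg15 itself read 6.10, 6.11 and 5.58 after ethanol and 7.32, 7.37 and 7.62 after 4-hydroxytamoxifen, a rise of 1.51 ± 0.14 (adjusted p = 2.21e-05). The activating enzyme Uba7 rose by 0.88 ± 0.07, the conjugating enzyme Ube2l6 by 0.79 ± 0.11 and the ligase Herc6 by 1.90 ± 0.14. Usp18, which removes the tag and restrains receptor signalling, rose from 9.18, 9.34 and 9.01 to 11.36, 11.13 and 11.59 (2.18 ± 0.20, adjusted p = 2.21e-05). Antiviral Trim ligases rose in 9 of 11 cases (81.8%), led by Trim30d (2.15 ± 0.21) and Trim30a (1.73 ± 0.14). The poly-ADP-ribose polymerase family was divided, with 5 of 15 up and 1 down. The 5 were Parp14 (1.14), Parp12 (0.91), Parp9 (0.90), Parp11 (0.86) and the zinc finger antiviral protein gene Zc3hav1 (0.51), while Parp1 differed by 0.13 (adjusted p = 0.397). Tiparp fell by 0.40 on the log2 scale (adjusted p = 0.0236), a call that was lost without 4OHT_Rosi 3, EtOH_Rosi 1, EtOH_Rosi 2 or EtOH_Rosi 3.

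**Figure D2:**
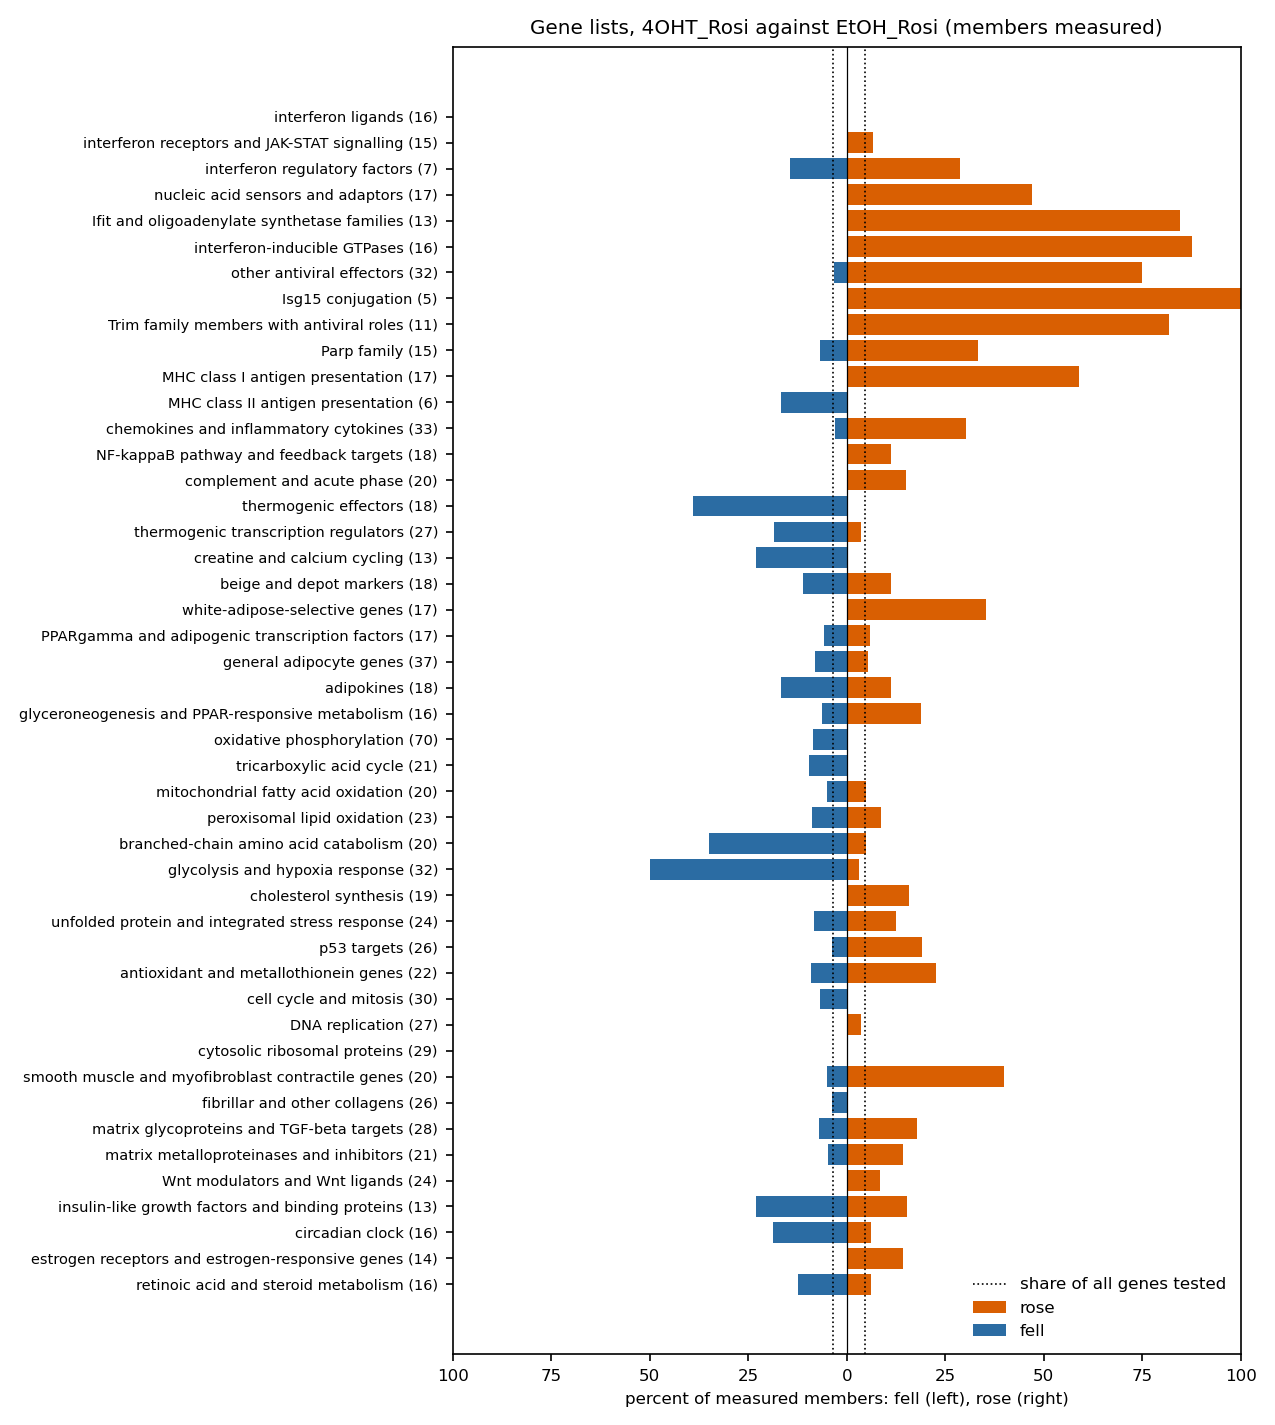
Bars give the percent of measured members of each gene list that rose (right) or fell (left) in 4OHT_Rosi against EtOH_Rosi at an adjusted p under 0.05, with the number measured in brackets. Dotted lines mark the shares over all genes tested, 4.65% and 3.38%. The Ifit and oligoadenylate synthetase, GTPase, other antiviral, Isg15 and Trim lists reach 75.0% to 100% on the right, and glycolysis and thermogenic effectors reach 50% and 38.9% on the left.

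Genes for presenting peptides on MHC class I rose in 10 of 17 cases (58.8%), by less than the antiviral genes. The median was 0.30. The nonclassical molecules H2-T23 and H2-Q4 rose by 0.73 ± 0.08 and 0.66 ± 0.08, though the dimmer probe set of H2-Q4 did not (-0.12, adjusted p = 0.37). Nlrc5, the transactivator of class I genes, read 7.23, 7.22 and 7.09 on control arrays and 7.85, 7.78 and 7.96 on treated arrays (0.68 ± 0.07, adjusted p = 9.49e-05). The immunoproteasome subunits Psmb8 and Psmb10 rose by 0.62 and 0.47, and the peptide transporter Tap1 by 0.61. B2m (0.07, adjusted p = 0.452) and H2-K1 (0.14, adjusted p = 0.175) did not pass. Of 6 class II genes, 0 rose in limma (0 also at an unadjusted p under 0.05) and H2-Ab1 fell, from 8.17, 8.35 and 8.25 to 7.45, 7.09 and 7.49 (difference -0.91 ± 0.10, adjusted p = 0.000129).

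Chemokines and cytokines rose in 10 of 33 cases (30.3%), with a median of 0.16, and Cxcl13, a B cell attractant, fell by 0.57 on the log2 scale (adjusted p = 0.0112). Cxcl9, a T cell attractant that interferon gamma induces, rose from 9.10, 8.87 and 8.68 to 10.95, 10.83 and 10.86, or 3.99-fold (2.0 ± 0.10, adjusted p = 3.67e-07). Ccl11 (eotaxin) read 8.5, 8.31 and 7.91 on control arrays and 9.34, 9.49 and 9.92 on treated arrays (1.34 ± 0.15, adjusted p = 0.000136). Ccl2, the monocyte attractant, rose by 1.09 ± 0.18 from 10.29, 9.99 and 9.87 to 11, 10.75 and 11.67, with 4OHT_Rosi 3 clearly the highest. Ccl5, Cxcl1 and Ccl9 rose by 1.06, 0.55 and 0.44. Tnf (0.01, adjusted p = 0.948) and Il1b (0.03, adjusted p = 0.878) did not pass. Of 18 NF-kappaB pathway genes 2 rose, but 0 rose without 4OHT_Rosi 1, 4OHT_Rosi 3 or EtOH_Rosi 2, and 1 without 4OHT 1, 4OHT 2, 4OHT 3, EtOH 2, EtOH 3, EtOH_Rosi 1 or EtOH_Rosi 3. Of 20 complement and acute phase genes 3 rose, or 1 without 4OHT_Rosi 2 or EtOH_Rosi 3. In the last list Cfb, the protease of the alternative complement pathway, rose by 0.68 ± 0.09 (adjusted p = 0.000303).

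Macrophage genes were present in both groups, since the summed level of 18 macrophage markers was 12.99 to 13.11 on EtOH_Rosi arrays and 13.08 to 13.14 on 4OHT_Rosi arrays. In that list 3 markers rose (16.7%, against 4.65% of all genes), also without any single array, and 2 fell (11.1%, against 3.38%). Fcgr1, the high-affinity IgG receptor, rose by 0.96, Mpeg1 by 0.89 and Ms4a7 by 0.56, while the scavenger receptor gene Marco fell by 0.75 and the lysozyme gene Lyz2 by 0.20 on the log2 scale (adjusted p = 0.000419 and 0.0416). The count of falls was 1 without 4OHT 2, EtOH 2, 4OHT_Rosi 2, 4OHT_Rosi 3 or any 1 EtOH_Rosi array. The pan-macrophage markers Adgre1 (-0.23, adjusted p = 0.298), Csf1r (0.08, adjusted p = 0.774) and Cd68 (0.16, adjusted p = 0.219) did not pass. Markers of T and natural killer cells, of neutrophils and mast cells, of B cells and of dendritic cells lay below the median level of all genes in 10 of 11, 11 of 11, 5 of 6 and 5 of 7 cases, and 0 of them changed in limma. Of 14 endothelial markers 2 rose (14.3%), Eng by 0.55 and Kdr by 0.49. Of 6 mesothelial markers 2 fell (33.3%), Krt19 by 0.50 and Lrrn4 by 0.37 on the log2 scale. The part of macrophages and these other cells in the interferon and chemokine values was not tested.

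Thermogenic effector genes fell. Of 18 measured members 7 fell (38.9%, against 3.38% of all genes) and 0 rose in limma, against 8 and 1 at an unadjusted p under 0.05. Ucp1, the uncoupling protein that dissipates the mitochondrial proton gradient as heat, read 8.20, 7.51 and 7.65 on the EtOH_Rosi arrays and 6.29, 6.10 and 6.24 on the 4OHT_Rosi arrays. The lowest control was more than 1 log2 unit above the highest treated array. It was 2.98-fold lower (-1.58 ± 0.14, adjusted p = 1.97e-05). Cidea, a lipid droplet protein of brown fat, read 6.2, 6.85 and 6.92 against 5.13, 5.15 and 5.02, or 2.94-fold lower (-1.56 ± 0.15, adjusted p = 4.15e-05). The treated values of Cidea were close to those of cells without rosiglitazone, at 4.71 to 5.07 on EtOH arrays. Ucp1 on treated arrays stayed above the 5.59 to 5.73 of EtOH arrays.

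Muscle-type cytochrome c oxidase subunits, which mark brown and beige mitochondria, fell with them. Cox8b read 9.46, 9.57 and 10.04 on control arrays and 8.45, 8.55 and 8.09 on treated arrays (-1.33 ± 0.14, adjusted p = 9.08e-05). Cox7a1 read 11.82, 11.91 and 12.01 against 11.23, 11.20 and 10.95 (-0.79 ± 0.12, adjusted p = 0.00135). Letmd1, a mitochondrial inner membrane protein needed for brown fat function, showed the least spread, at 11.17, 11.16 and 11.19 against 10.80, 10.76 and 10.76 (-0.40 ± 0.05, adjusted p = 0.00023). Aspg of the effector list fell too (-0.69 ± 0.16, adjusted p = 0.0203), a call lost without 4OHT_Rosi 3, EtOH_Rosi 2 or EtOH_Rosi 3. Members that did not pass include Dio2 (-0.03, adjusted p = 0.936) and Elovl3 (0.09, adjusted p = 0.818). In the creatine and calcium cycling list 3 of 13 fell, including Gamt, which makes creatine (-0.43 ± 0.08, adjusted p = 0.00603), and the creatine kinase Ckb (-0.37 ± 0.08, adjusted p = 0.00929). The other fall, that of Slc6a8, was lost without any of 9 single arrays, and the count was then 2.

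Of 27 thermogenic transcription regulators, 5 fell and 1 rose, with Prdm16 and Irf4 among the 5. The count of falls was 3 without 4OHT_Rosi 3, EtOH_Rosi 2 or EtOH_Rosi 3. Ppara, a fatty acid receptor that drives oxidation genes, read 9.91, 9.99 and 10.03 on control arrays and 9.66, 9.43 and 9.38 on treated arrays (-0.49 ± 0.09, adjusted p = 0.00366). Zfp423, a zinc finger factor that restrains the thermogenic program in white fat, rose from 7.71, 7.77 and 7.80 to 8.09, 8.10 and 8.19 (0.37 ± 0.07, adjusted p = 0.00428). Ppargc1a, the coactivator of mitochondrial biogenesis, overlapped between groups, at 8.94, 8.99 and 9.21 against 9.04, 9.15 and 8.86. Its difference was -0.03 (adjusted p = 0.932) and had no stable sign, being 0.05 without EtOH_Rosi 3 or 4OHT_Rosi 3.

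**Figure D3:**
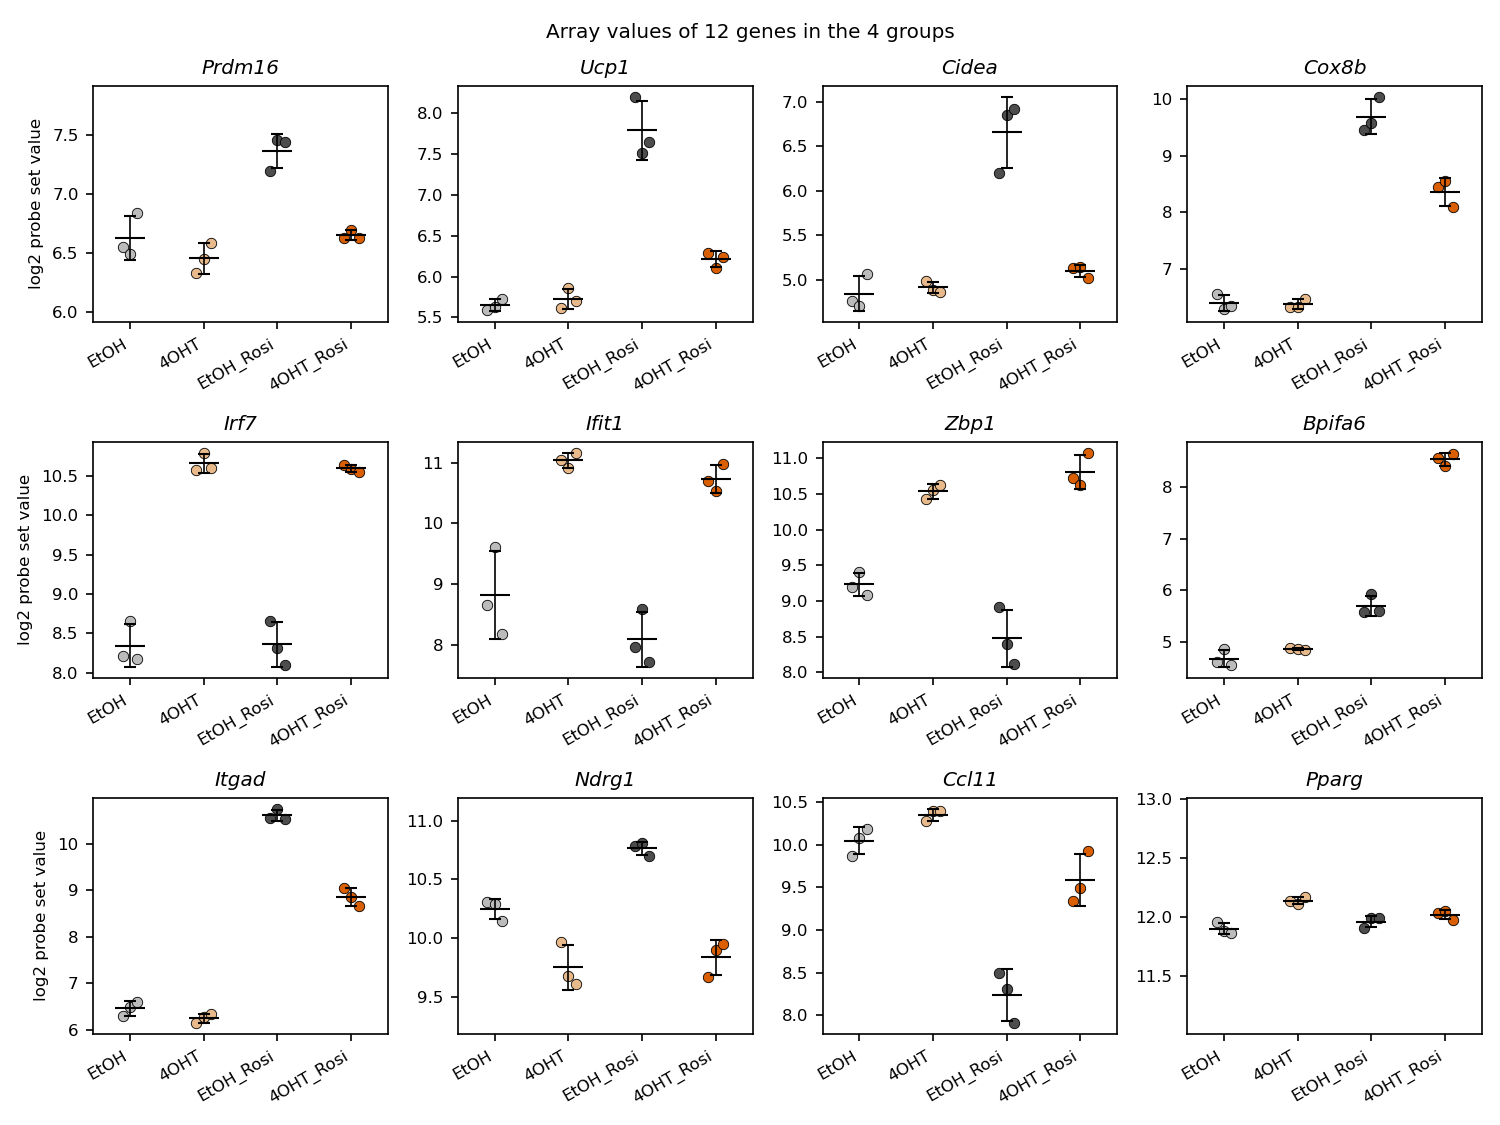
Points are array values (log2) of 12 genes in the 4 groups, 3 arrays each, and the horizontal lines and bars give the mean and SD. Each panel has its own y axis. Ucp1, Cidea and Cox8b are highest in EtOH_Rosi, Irf7, Ifit1 and Zbp1 are high in both 4-hydroxytamoxifen groups, and Pparg lies between 11.87 and 12.17 on all arrays.

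Core fat cell markers differed little. Pparg read 11.91, 11.99 and 11.99 against 12.04, 12.05 and 11.98 (0.06 ± 0.05, adjusted p = 0.598). Adipoq, which encodes adiponectin, differed by 0.08 ± 0.06 (adjusted p = 0.51) and Fabp4, a fatty acid binding protein, by -0.04 ± 0.05 (adjusted p = 0.763). For these 3 genes the arrays of both groups overlapped. The summed level of 8 adipocyte markers was 15.61 to 15.64 after ethanol and 15.61 to 15.70 after 4-hydroxytamoxifen. Of these 8 markers 0 lay below the median level of all genes, and in limma 0 changed, also at an unadjusted p under 0.05. In a wider list of 37 general adipocyte genes 3 fell and 2 rose, or 1 rose without 4OHT_Rosi 2, 4OHT_Rosi 3 or EtOH_Rosi 3. Those falls and rises are 8.11% and 5.41% of the list, against 3.38% and 4.65% of all genes. Ffar4, a receptor for long-chain fatty acids, fell from 10.60, 10.91 and 10.94 to 9.99, 10.13 and 9.82 (-0.84 ± 0.12, adjusted p = 0.00105). Car3 differed by -0.33 ± 0.07 (adjusted p = 0.00768), and Dgat2, which makes triglyceride, rose by 0.43 ± 0.08 (adjusted p = 0.00466). The adipogenic factor Cebpd fell slightly (-0.33 ± 0.06, adjusted p = 0.00626).

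White-adipose-selective genes rose in 6 of 17 cases (35.3%) and 0 fell, with a median of 0.15. With only the 6 compared arrays in the fit, 2 rose. Wfdc21 rose from 8.65, 8.81 and 8.47 to 9.09, 9.43 and 9.16 (0.58 ± 0.10, adjusted p = 0.00278). Agt, which encodes angiotensinogen, rose by 0.44 ± 0.09 (adjusted p = 0.00859). Trim14 of this list rose by 0.51 and is also counted among the antiviral Trim genes. Retn (0.09, adjusted p = 0.414) and Lep (0.64 ± 0.18, adjusted p = 0.0522) did not pass. Of 18 beige and depot markers 2 rose and 2 fell (11.1% each). Without single arrays the rises numbered 1 to 3 and the falls 0 to 2. Epsti1, which is also inducible by interferon, rose by 0.65 ± 0.11 (adjusted p = 0.00317), and Hoxc8 by 0.19 (adjusted p = 0.044). The falls were those of P2rx5 (-0.6, adjusted p = 0.0305) and Fbxo31 (-0.46, adjusted p = 0.0407). Tmem26 (0.00, adjusted p = 0.986) and Tbx1 (0.14, adjusted p = 0.522) did not pass.

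Glycolysis and hypoxia-response genes made up the largest share of falls among the metabolic lists. Of 32 measured members 16 fell (50%) and 1 rose, with a median of -0.32. The single rise was lost when most single arrays were left out, and falls then numbered 11 to 17. Ndrg1, a hypoxia-induced gene, read 10.78, 10.81 and 10.70 on control arrays and 9.67, 9.90 and 9.95 on treated arrays, or 1.9-fold lower (-0.92 ± 0.10, adjusted p = 6.88e-05). Ddit4, an inhibitor of mTORC1 signalling, differed by -0.76 ± 0.12, and Mxi1, an antagonist of MYC, by -0.53 ± 0.08. The phosphofructokinase genes Pfkp (-0.61 ± 0.07, adjusted p = 0.000139) and Pfkm (-0.47 ± 0.07, adjusted p = 0.000868) fell. So did the glucose transporter Slc2a1, from 11.95, 11.97 and 11.86 to 11.57, 11.55 and 11.50 (-0.39 ± 0.05, adjusted p = 0.000696). Adm, a vasodilator peptide gene induced by hypoxia, differed by -0.40 ± 0.08 (adjusted p = 0.0104). Late glycolytic enzymes such as Gapdh (-0.12, adjusted p = 0.201) and Ldha (-0.16, adjusted p = 0.0865) did not pass.

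Branched-chain amino acid catabolism, a fuel pathway of thermogenic fat, fell in 7 of 20 cases (35.0%) and rose in 1, with a median of -0.23. The count of falls depended on single arrays, being 3 without 4OHT_Rosi 3, EtOH_Rosi 2 or EtOH_Rosi 3 and 4 without 4OHT 2 or EtOH 2. Dbt, the transferase subunit of the branched-chain dehydrogenase, read 11.68, 11.69 and 11.59 against 11.28, 11.35 and 11.23 (-0.37 ± 0.06, adjusted p = 0.00183). Bckdk, the kinase that inhibits the same complex, fell as well, by 0.47 on the log2 scale (adjusted p = 0.00516), and Mccc2 of leucine breakdown by 0.40 (adjusted p = 0.00859). Of 70 oxidative phosphorylation genes 6 fell and 0 rose in limma, against 22 and 0 at an unadjusted p under 0.05. Their median was -0.10, and 63 of 70 differences were negative. The 6 include Cox8b and Cox7a1, and the count was 10 without EtOH_Rosi 1, 2 without EtOH_Rosi 2 and 3 without EtOH_Rosi 3.

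Of 20 mitochondrial fatty acid oxidation genes 1 rose and 1 fell (5% each, near the 4.65% and 3.38% of all genes). Of the 20 differences 19 were negative, with a median of -0.11. At an unadjusted p under 0.05 the counts were 1 and 10. The fall was that of Acadvl, a dehydrogenase of long-chain fatty acids (-0.29, adjusted p = 0.0369), and was lost without 4OHT 1, 4OHT 2, 4OHT 3, 4OHT_Rosi 1, 4OHT_Rosi 3, EtOH_Rosi 2 or EtOH_Rosi 3. The rise was that of Cpt1a, which controls fatty acid entry into mitochondria, from 9.75, 9.66 and 9.28 to 10.08, 10.04 and 10.39 (0.61 ± 0.11, adjusted p = 0.00513). Of 23 peroxisomal genes 2 rose and 2 fell (8.7% each), or 1 fell without 4OHT_Rosi 2, 4OHT_Rosi 3, EtOH_Rosi 2 or EtOH_Rosi 3. Abcd2, a transporter of very long-chain fatty acids, read 11.27, 11.24 and 11.22 against 11.72, 11.78 and 11.75, with almost no spread within groups (0.51 ± 0.05, adjusted p = 7.89e-05). Ehhadh of peroxisomal oxidation rose by 0.59 ± 0.11 (adjusted p = 0.00432), and Phyh, the first enzyme of phytanic acid oxidation, differed by -0.44 ± 0.08 (adjusted p = 0.00579). In cholesterol synthesis 3 of 19 rose (15.8%), including Hmgcs1 (0.37 ± 0.06, adjusted p = 0.00111) and Dhcr7 (0.35 ± 0.07, adjusted p = 0.00767).

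**Figure D4:**
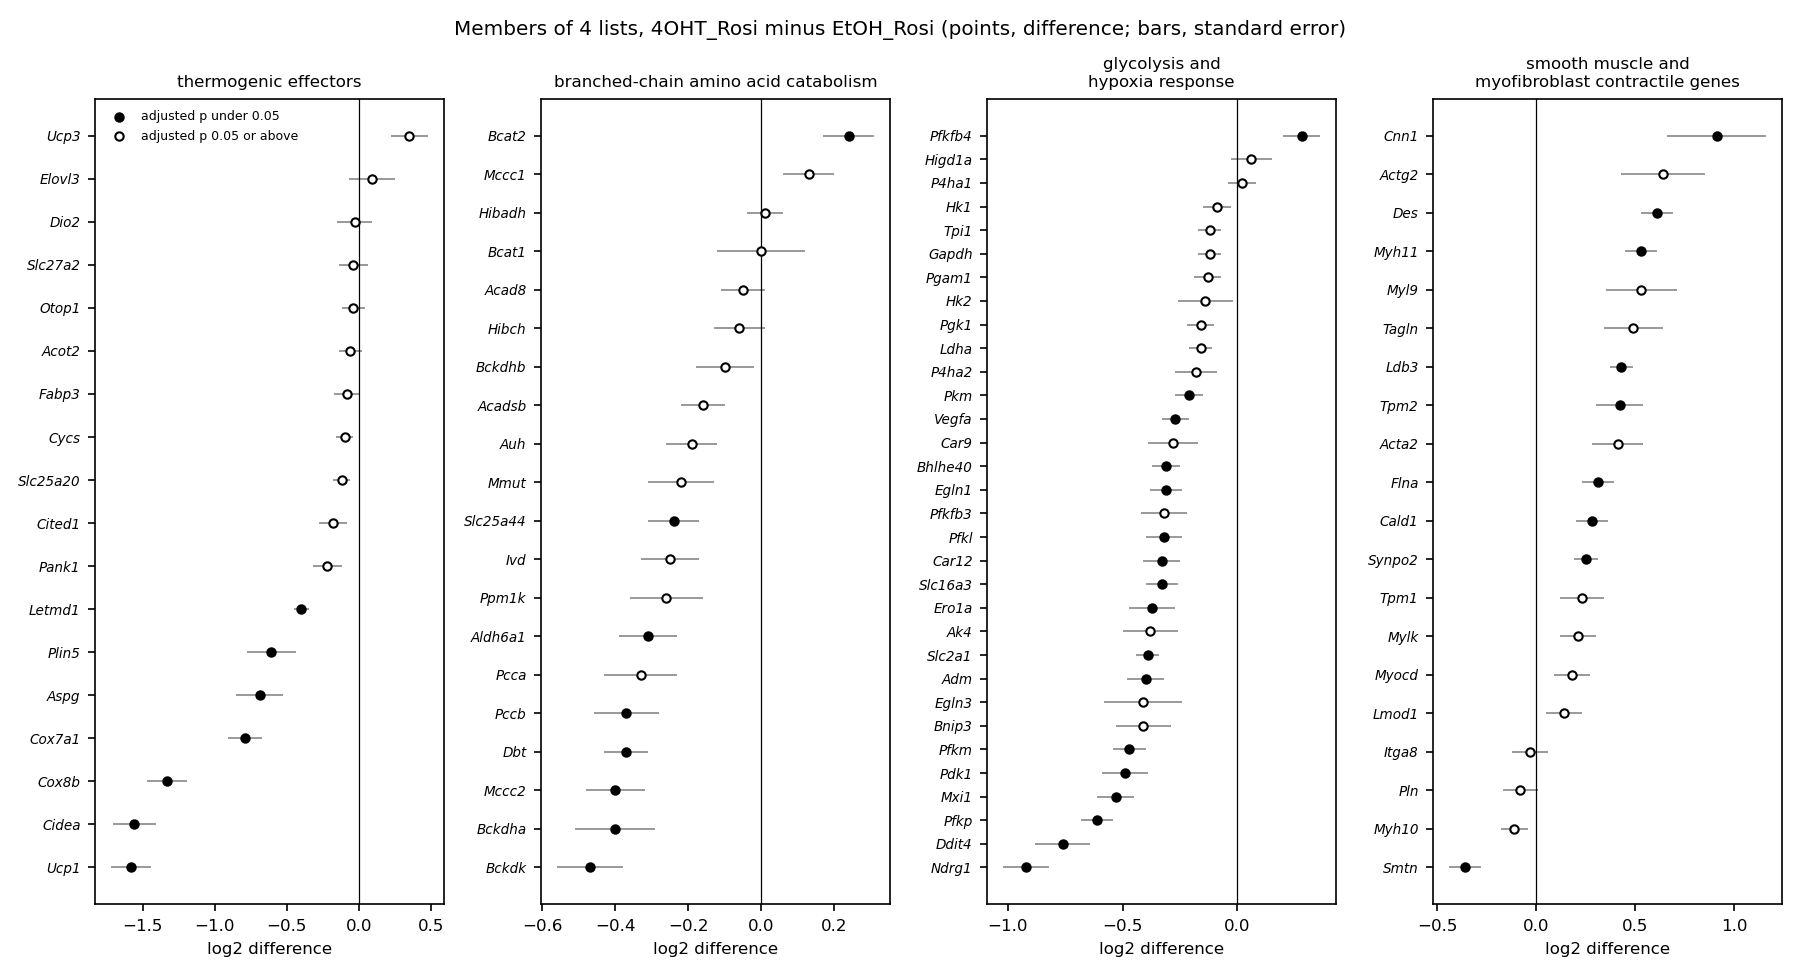
Each row is a measured member of 1 of 4 lists. The x axis gives the log2 difference of 4OHT_Rosi minus EtOH_Rosi, bars are standard errors, and filled points have an adjusted p under 0.05. The largest falls are -1.58 for Ucp1 among thermogenic effectors, -0.92 for Ndrg1 in glycolysis and hypoxia and -0.47 for Bckdk in branched-chain amino acid catabolism.

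Contractile genes of smooth muscle and myofibroblasts rose in 8 of 20 cases (40.0%) and fell in 1, with a median of 0.30. The count of 8 became 3 without 4OHT_Rosi 3, 4 without 4OHT 1, 4OHT 2, EtOH 2 or EtOH_Rosi 3, and 5 without 4OHT 3 or EtOH_Rosi 2. Myh11, the smooth muscle myosin heavy chain, read 7.73, 7.74 and 7.82 on control arrays and 8.28, 8.39 and 8.20 on treated arrays (0.53 ± 0.08, adjusted p = 0.00106). Des, which encodes the filament protein desmin, rose by 0.61 ± 0.08 (adjusted p = 0.000583) and the Z-disc gene Ldb3 by 0.43 ± 0.06 (adjusted p = 0.000667). Acta2 (0.41 ± 0.13, adjusted p = 0.0701) and Tagln (0.49 ± 0.15, adjusted p = 0.06) did not pass. Smtn, which encodes the actin-binding protein smoothelin, fell by 0.36 on the log2 scale (adjusted p = 0.012), a call that was lost without 4OHT_Rosi 2. The summed level of 10 smooth muscle and pericyte markers was 12.65 to 13.01 after ethanol and 13.01 to 13.41 after 4-hydroxytamoxifen. Of these 10 markers 2 rose and 1 fell, and 5 differences were positive and 5 negative. Without single arrays the rises numbered 1 to 4 and the falls 0 to 2. The part of smooth muscle cells and pericytes in the contractile values was not tested.

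Matrix glycoproteins and TGF-beta targets had 5 rises and 2 falls among 28 genes, which rested on few arrays. The count of rises was 3 without 4OHT 1, 4OHT_Rosi 1 or 4OHT_Rosi 2, 1 without 4OHT_Rosi 3 or EtOH_Rosi 2, and 0 without EtOH_Rosi 3. The falls were those of Tgfb2 (-0.38, adjusted p = 0.0292) and the proteoglycan gene Dcn (-0.21, adjusted p = 0.0299), and numbered 0 without 4OHT_Rosi 1 or EtOH_Rosi 3 and 1 without 4OHT_Rosi 2, EtOH_Rosi 1 or EtOH_Rosi 2. Of 26 collagens, 0 rose in limma (1 at an unadjusted p under 0.05) and Col6a3 fell (-0.36 ± 0.07, adjusted p = 0.00728). The collagenase Mmp13 rose by 0.70 ± 0.14 (adjusted p = 0.00767) and the matrix protease Adamts1 by 0.44 ± 0.08 (adjusted p = 0.00359), while the inhibitor Timp4 differed by -0.83 (adjusted p = 0.0118). Ccn5, a secreted matricellular protein linked to Wnt signalling, rose from 10.43, 10.33 and 10.16 to 10.86, 10.62 and 11.11 (0.56 ± 0.10, adjusted p = 0.00513).

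Insulin-like growth factor genes changed in opposite directions. Igf1, the growth factor itself, rose from 10.35, 10.16 and 10.04 to 10.55, 10.88 and 11 (0.63 ± 0.11, adjusted p = 0.00253). The binding proteins Igfbp3 (-0.55 ± 0.09), Igfbp5 (-0.52 ± 0.08) and Igfbp6 (-0.44 ± 0.07) fell, with adjusted p of 0.00168, 0.00168 and 0.00127. Ccnd1, which encodes cyclin D1, rose from 8.86, 9.01 and 8.81 to 9.86, 9.54 and 9.67 (0.80 ± 0.08, adjusted p = 6.1e-05), and the early gene Fos by 0.53 ± 0.07 (adjusted p = 0.000583). Both stand in a list of 14 estrogen receptors and responsive genes, in which no other member passed. Pgr (0.05, adjusted p = 0.853) and Greb1 (-0.12, adjusted p = 0.367), classical estrogen targets, did not pass. Fkbp5, a glucocorticoid-induced chaperone gene, fell from 9.13, 9.16 and 9.45 to 8.64, 8.62 and 8.20 (-0.76 ± 0.12, adjusted p = 0.00142). The clock output gene Dbp differed by -0.31 ± 0.06 (adjusted p = 0.00768).

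Stress lists held smaller changes. Of 26 p53 targets 5 rose and 1, Btg2, fell, but the count of rises was 1 without 4OHT_Rosi 3 and 3 without EtOH_Rosi 2 or EtOH_Rosi 3. Eda2r, a receptor of the tumour necrosis factor family, rose by 0.64 ± 0.11 (adjusted p = 0.0027), and Btg2, an antiproliferative gene, differed by -0.44 ± 0.07 (adjusted p = 0.00196). Cdkn1a (0.11, adjusted p = 0.269) and Mdm2 (0.20, adjusted p = 0.0939) did not pass. Of 22 antioxidant genes 5 rose, or 3 without 4OHT_Rosi 3 or EtOH_Rosi 3, and 2 fell, or 1 without EtOH_Rosi 2. The cystine carrier Slc7a11 (0.68 ± 0.13) and the glutathione transferase Gsta3 (0.60 ± 0.10) rose, and the secreted peroxidase Gpx3 fell from 8.98, 8.85 and 8.99 to 8.42, 8.38 and 8.46 (-0.52 ± 0.06, adjusted p = 9.21e-05). The other fall was that of the metallothionein Mt2 (-0.28, adjusted p = 0.0107). In the unfolded protein and integrated stress response list, the chaperones Dnajb9 and Dnajc3 rose by 0.26 and 0.33. Xbp1 and Asns differed by -0.18 and -0.24 (adjusted p = 0.0356 and 0.0444). These 2 calls were fragile, that of Xbp1 being lost without any of 9 single arrays and that of Asns without any of 11. Ddit3 (0.10, adjusted p = 0.506) and Hspa5 (0.12, adjusted p = 0.272) did not pass.

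Several of the largest changes were in genes on none of these lists. Bpifa6, a member of the bactericidal permeability-increasing protein fold family, read 5.57, 5.92 and 5.59 on the EtOH_Rosi arrays and 8.57, 8.40 and 8.65 on the 4OHT_Rosi arrays. This 7.19-fold rise (2.85 ± 0.10, adjusted p = 1.12e-08) had the smallest p of all genes. Mtarc1, a mitochondrial enzyme that reduces N-hydroxylated compounds, rose from 8.22, 8.37 and 8.15 to 9.76, 9.66 and 9.76 (1.48 ± 0.08, adjusted p = 3.78e-07). BC023105 rose from 6.81, 6.44 and 5.87 to 8.94, 8.91 and 9.27 (2.67 ± 0.21, adjusted p = 1e-05). It was also higher without rosiglitazone, by 1.60 (adjusted p = 0.000564), and its interaction did not pass (adjusted p = 0.115). Whether BC023105 belongs with the interferon-inducible families was not worked out. Shisa6, a glutamate receptor auxiliary subunit, rose by 1.27 ± 0.16 (adjusted p = 0.000258).

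The largest fall was that of Itgad, an integrin alpha chain known from leukocytes. It read 10.56, 10.75 and 10.52 against 9.04, 8.86 and 8.66, or 3.38-fold lower (-1.76 ± 0.10, adjusted p = 1.14e-06). Itpka, an inositol trisphosphate kinase, fell from 7.25, 7.88 and 8.17 to 6.53, 6.52 and 6.17 (-1.36 ± 0.19, adjusted p = 0.000697), with EtOH_Rosi 1 the lowest control. The mucin gene Muc2 (-1.25 ± 0.13), the fibronectin-domain gene Fndc1 (-1.24 ± 0.11), corneodesmosin (Cdsn, -1.21 ± 0.12) and the junction protein gene Mpzl2 (-1.20 ± 0.17) followed. The second probe set of Muc2, at a mean of 6.86 against 7.3 for the one used, differed by only -0.51 (adjusted p = 0.0466). Kininogen (Kng2) fell from 7.75, 7.66 and 7.49 to 6.27, 6.40 and 6.72 (-1.17 ± 0.11, adjusted p = 2.77e-05), and the sodium-proton exchanger Slc9b2 from 8.51, 8.62 and 8.63 to 7.48, 7.40 and 7.39 (-1.16 ± 0.09, adjusted p = 1.28e-05).

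The same treatment without rosiglitazone was measured on other arrays. In 4OHT against EtOH, 472 genes (2.13%) were higher and 396 (1.79%) lower. Which setting had more calls depended on the fit. With array weights 1167 genes were higher and 1075 lower without rosiglitazone, against 830 and 670 with it, and with only the 6 arrays of each comparison the counts were 576 and 620 against 499 and 330. Of the genes that rose with rosiglitazone, 257 also rose without it, which is 24.9% of the first list and 54.4% of the second. Of the fallen genes, 98 fell in both (13.1% and 24.7%), and 5 genes in each direction were called with opposite signs. The same sign was seen for 838 of the 1032 risen and 540 of the 750 fallen genes. Without rosiglitazone the count of higher genes was 276 to 297 without EtOH 3, 4OHT 2, 4OHT 1 or EtOH 2, and that of lower genes was 189 to 254 without any 1 array of those 2 groups.

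Interferon-stimulated genes rose in both settings. Without rosiglitazone, 10 of 13 Ifit and oligoadenylate synthetase genes and 15 of 16 interferon-inducible GTPases were higher, and the list medians were 1.17 and 1.13. In that setting Irf7 was higher by 2.31, Ifit1 by 2.22, Oas1g by 2.06, Usp18 by 1.75, Gbp3 by 1.58 and Isg15 by 1.23, with adjusted p of 4.01e-06, 0.000617, 0.000449, 0.00024, 1.52e-05 and 0.000215. The test of the difference between the settings, the interaction of the fit, was not passed by any of these 6 genes. It was -0.08 ± 0.20 for Irf7, 0.42 ± 0.41 for Ifit1 and 0.60 ± 0.16 for Gbp3, with adjusted p of 0.916, 0.726 and 0.109. For Zbp1, which was higher by 1.31 without rosiglitazone, it was 1.03 ± 0.24 (adjusted p = 0.0629). Among the 170 measured members of the 12 interferon and antigen presentation lists, limma called 0 positive interactions and 1 negative, against 17 and 12 at an unadjusted p under 0.05. The negative one was that of Isg20. A missed threshold does not show that the effects were equal in both settings.

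By the interaction of the fit, some thermogenic falls differed between the settings. Ucp1 differed by 0.08 without rosiglitazone (adjusted p = 0.867), where EtOH arrays read 5.59, 5.63 and 5.73, and its interaction was -1.65 ± 0.19 (adjusted p = 0.00591). Cidea (-1.63 ± 0.21, adjusted p = 0.00726), Cox8b (-1.30 ± 0.20, adjusted p = 0.0122) and Letmd1 (-0.52 ± 0.07, adjusted p = 0.00726) also had called interactions. These 4 of 18 thermogenic effectors, 4 or 5 without any single array, compare with 0.482% negative and 0.523% positive interactions over all genes, 107 and 116 genes. Without rosiglitazone, Ucp1, Cidea (EtOH mean 4.85) and Cox8b (6.41) lay below the median level of all genes, 6.6, unlike Letmd1 (9.97). Whether these low levels limited a fall without rosiglitazone, and so added to the interactions, was not tested. Ppara differed by -0.49 with rosiglitazone and by 0.40 without it (adjusted p = 0.0212), an interaction of -0.88 ± 0.12 (adjusted p = 0.00776). For Prdm16 itself the interaction was -0.54 ± 0.14 (adjusted p = 0.0954). Bpifa6 and Mtarc1 had positive interactions of 2.66 ± 0.14 and 1.23 ± 0.11, and Itgad a negative one of -1.55 ± 0.15 (adjusted p = 2.25e-06, 0.000514 and 0.00074). Itgad also lay below the median level without rosiglitazone, with an EtOH mean of 6.45.

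In the cells without rosiglitazone, many cell cycle genes were lower after 4-hydroxytamoxifen than after ethanol. Of 30 genes, 23 fell there, against 1.79% of all genes, with a median of -0.50, and 14 fell without 4OHT 1. With rosiglitazone the median was -0.05, and in limma 0 rose and 2 fell, against 2 and 3 at an unadjusted p under 0.05. The falls were those of Mki67 (-0.35, adjusted p = 0.0387) and Cenpa (-0.32, adjusted p = 0.0389). They numbered 0 without 4OHT_Rosi 1, 4OHT_Rosi 2, EtOH 2, EtOH 3, EtOH_Rosi 1 or EtOH_Rosi 2, and 1 without 4OHT 1, 4OHT 3, EtOH 1 or EtOH_Rosi 3. A positive interaction was called for 7 of the 30, but for 0 without 4OHT 1, 4OHT 3, EtOH 1 or EtOH 2, 1 without 4OHT_Rosi 3 or EtOH_Rosi 2 and 2 without 4OHT 2, EtOH 3 or EtOH_Rosi 3. The mitotic kinase gene Plk1 is an example, at -0.05 with and -0.78 without rosiglitazone (interaction 0.73, adjusted p = 0.0205). Ngfr, a neurotrophin receptor, read 8.76, 8.96 and 8.66 on EtOH and 6.49, 6.63 and 6.40 on 4OHT arrays, but 7.16, 6.99 and 6.84 on EtOH_Rosi and 6.86, 6.05 and 6.54 on 4OHT_Rosi arrays, an interaction of 1.77 ± 0.23 (adjusted p = 0.00726). The count of interactions was sensitive to single arrays. Positive ones numbered 24 without 4OHT 1, 32 without 4OHT 2 or EtOH_Rosi 2, 35 without EtOH 2, 36 without EtOH 1, 43 without 4OHT_Rosi 3, 47 without 4OHT 3, 49 without EtOH 3 or EtOH_Rosi 3 and 177 without 4OHT_Rosi 1. Negative ones numbered 27 without 4OHT 1, 33 without EtOH 2, 36 without EtOH_Rosi 2, 37 without 4OHT 2, 40 without EtOH 3, 44 without 4OHT 3, 50 without 4OHT_Rosi 3, 54 without EtOH 1, 64 without EtOH_Rosi 3 and 173 without EtOH_Rosi 1. The interactions of Ucp1, Cidea, Cox8b, Letmd1, Ppara, Bpifa6, Mtarc1, Itgad and Ngfr were called without every single array in turn.

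**Figure D5:**
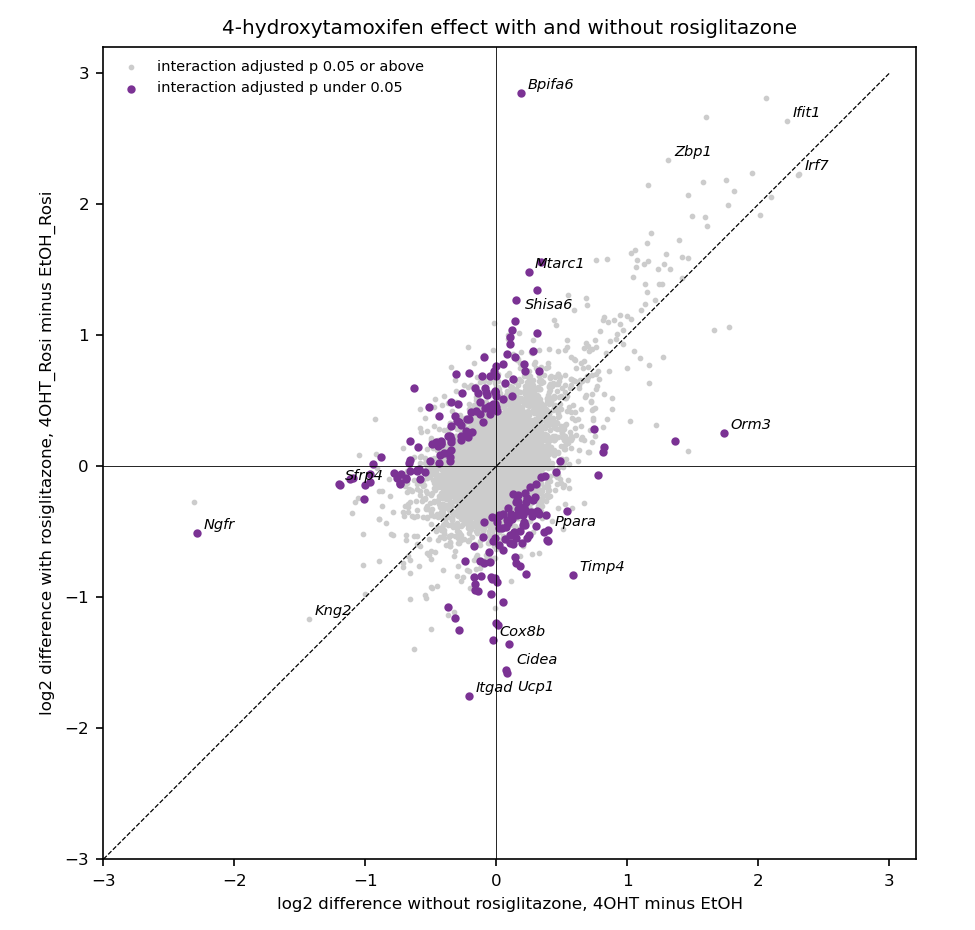
Each point is a gene. The x axis gives its log2 difference without rosiglitazone (4OHT minus EtOH) and the y axis that with rosiglitazone (4OHT_Rosi minus EtOH_Rosi), the dashed line marks equal differences, and purple points have an interaction adjusted p under 0.05. Irf7 and Ifit1 lie near the line at 2.31 and 2.22 on the x axis, whereas Ucp1, Cidea and Itgad lie near 0 on it.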

How the data were processed

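Gene expression was measured on 12 Affymetrix arrays, 250 ng of labelled RNA each, of which 6 enter the comparison described above. The deposited values are log2 probe set values that the authors made with Affymetrix Expression Console, per the submitters' processing notes. Neither its version nor the normalization is stated in the labels, and the values were used as deposited, with 1 column per array and no pooling. Of 41345 probe sets, 23521 carried exactly 1 gene symbol in the platform annotation, 1814 several and 16010 none. Of the single-symbol probe sets 23328 were matched to RefSeq through Entrez identifiers and 193 kept the annotated symbol. Each of 22180 genes was represented by its probe set with the highest mean over 12 arrays, a choice among several for 1082 genes.

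Group means of all 4 groups were fitted with limma 3.58.1 in R 4.3.3 (lmFit and eBayes, 8 residual and 5.07 prior degrees of freedom). Contrasts were 4OHT_Rosi minus EtOH_Rosi, 4OHT minus EtOH, and the difference between both. P-values were adjusted by Benjamini-Hochberg over all genes, with a threshold of 0.05 and no fold minimum. The procedure was tested on simulated data. Marker levels were summed on the linear scale and given as log2. Tables were made with pandas 2.3.3 in Python 3.11.15 and plots with matplotlib 3.10.9. Precision is limited by the 3 arrays per group.

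Genes named with a call were a panel (Irf7, Isg15, Ifit1, Prdm16, Pparg, Ppargc1a, Fabp4, Adipoq, Cidea and Ucp1), the 12 largest rises and 12 largest falls among genes at or above the median level of 6.6 whose arrays did not overlap, up to 6 called members per list in order of p, and the 6 largest interactions in each direction. Predicted genes, olfactory and vomeronasal receptors and small RNAs were left out of the largest changes. From these, genes called without every single array were preferred, and further members named as examples, Isg20, Cxcl13, Marco, Lyz2, Fcgr1, Mpeg1, Ms4a7, Plk1 and Trp73 included, were chosen after their values were seen. The members and the gene lists were chosen with earlier results of these data known. Alternatives covered normalization, centring, filters, probe set choice, array weights, the eBayes prior, the arrays in the fit, the replicate block and leaving out each array.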

Additional observations from a re-analysis of the deposited data

Results flagged for a closer look

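The effect of 4-hydroxytamoxifen differed between cells with and without rosiglitazone, by the interaction of the limma fit at an adjusted p under 0.05, for 116 genes in the positive and 107 in the negative direction. Values below are interactions in log2 units, the difference with rosiglitazone minus the difference without. Among genes of brown and beige fat, the interaction was -1.65 for Ucp1, -1.63 for Cidea, -1.30 for Cox8b, -0.52 for Letmd1, -0.88 for Ppara and -0.53 for the creatine kinase Ckb. In other metabolic lists it was -0.42 for Dbt, -0.42 for the complex I subunit Ndufs8 and -0.54 for Pfkm. Ucp1, Cidea and Cox8b lay below the median level of all genes without rosiglitazone. The part of that level in their interactions was not tested.

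Chemokine interactions were 1.04 for Ccl11 and 0.53 for Ccl9. For secreted and matrix genes it was 0.82 for Ccn5, 1.01 for Mmp13, 0.45 for the thrombospondin Thbs2, 1.07 for the Wnt modulator Sfrp4 and -1.42 for the protease inhibitor Timp4. Receptors had interactions of 1.77 (Ngfr), 1.22 (the apelin receptor Aplnr) and -0.46 (the natriuretic peptide receptor Npr3). It was -0.94 for Fkbp5, -0.53 for Dbp and -1.49 for the acute phase gene Orm3.

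Of the remaining genes, Bpifa6 had an interaction of 2.66, Mtarc1 of 1.23 and Shisa6 of 1.11. Negative interactions were seen for Itgad (-1.55), Itpka (-1.46), Cdsn (-1.22), Mpzl2 (-1.20), Muc2 (-0.97) and Slc9b2 (-0.85). Of these 31 genes, 13 kept a called interaction without every single array in turn, namely Bpifa6, Cdsn, Cidea, Cox8b, Itgad, Letmd1, Mtarc1, Ngfr, Orm3, Ppara, Sfrp4, Slc9b2 and Ucp1, and 18 lost it without at least 1.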

How the results depend on the processing

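Of 190 named genes called with rosiglitazone, 123 were called in every alternative that tested them, 129 without every single array in turn, and 0 changed sign. Ppargc1a, which was not called, turned to 0.034 with array weights, 0.048 without 4OHT_Rosi 3 and 0.052 without EtOH_Rosi 3, within a range of -0.097 to 0.052 over single arrays left out. With only the 6 arrays compared in the fit, 499 genes were higher and 330 lower, and 620 were lower without rosiglitazone. That setting gave 3 falls of thermogenic regulators, 2 of oxidative phosphorylation and 3 of branched-chain catabolism, and rises of 2 white-selective, 1 p53, 3 antioxidant, 3 smooth muscle and 0 matrix genes. A 2-fold minimum left 73 and 19 genes with rosiglitazone, 54 and 16 without it, and 12 and 12 interactions. Array weights gave 1167 higher and 1075 lower genes without rosiglitazone, 198 and 198 interactions, 3 branched-chain falls, and 4 smooth muscle and 2 matrix rises. Keeping genes above the 50th percentile of level gave 200 and 181 interactions and 14 oxidative phosphorylation falls, and the trended robust prior 192 and 201, with 15 falls. Leaving out single arrays gave 691 to 981 higher and 452 to 739 lower genes with rosiglitazone, 276 to 522 and 189 to 537 without it, and 24 to 177 positive and 27 to 173 negative interactions. List counts then ranged from 3 to 5 for thermogenic regulators, 2 to 10 for oxidative phosphorylation, 3 to 10 for branched-chain catabolism, 1 to 6 for p53, 3 to 5 for antioxidant, 3 to 9 for smooth muscle and 0 to 6 for matrix genes. The cause of these shifts was not tested.

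The replicate numbers showed no clear pairing of the rosiglitazone arrays. Same-numbered arrays correlated at -0.205, 0.059 and -0.24 in their deviations from the group means, and not every array correlated best with its own number. Deviations from means of 3 arrays cannot show whether same-numbered arrays were prepared together. With the replicate block, 807 genes were higher and 575 lower with rosiglitazone, interactions numbered 59 and 57, and there were 4 branched-chain falls, 4 smooth muscle rises and 3 matrix rises.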
